A study of Mus musculus with 2 samples.

Results

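The aminoacyl-tRNA synthetases were followed in the corneal epithelium of C57BL/6 mice, in an epithelium that was closing a wound and in the intact epithelium of the other eye. The members were a fixed list of 36 genes, 20 for enzymes of the cytosol and 16, with symbols ending in 2, for enzymes of the mitochondrion. A gene was found through the symbol that the platform's annotation gives to a row of the deposited table. Of the 36 genes, 34 had a row of their own and passed the low-signal filter, 18 cytosolic and 16 mitochondrial, out of 19419 genes measured in all. Each of the 34 had exactly 1 row. The alanine gene Aars shared its row with the exosome gene Exosc6 and was kept out of every count, and no row used here carries the name of the aspartate gene Dars.

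Male and female mice aged 8 weeks were anaesthetised with ketamine and xylazine, and a 0.5 mm rust ring remover was used to strip the whole epithelium out to the limbus, which rims the cornea where the conjunctiva begins. About 48 hours later 10% of the wound was still open, and epithelium was taken from the injured eye and from the uninjured fellow eye, so that the controls come from mice that were also anaesthetised and wounded. Total RNA, 2 µg per sample, was amplified, labelled with biotin and hybridised to 1 array for the injured and 1 for the uninjured group. How many mice lie behind an array, and of which sex, is not stated in what was available here. With 1 array per group there is no spread between samples, no test was possible, and each difference is without a replicate check.

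An aminoacyl-tRNA synthetase joins an amino acid to the tRNAs that carry its anticodons, the step that sets the genetic code in every translating cell. Mammals use separate nuclear genes for most cytosolic enzymes and for those that serve the ribosomes inside mitochondria, while Gars and Kars give both forms from 1 gene. Several cytosolic enzymes sit together in the multi-synthetase complex, which is held by the scaffold proteins Aimp1, Aimp2 and Eef1e1. Many cytosolic synthetase genes are known targets of ATF4, the transcription factor of the amino acid response, and in stratified epithelia demand for charged tRNA follows the rate of protein synthesis.

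The deposited values are log2 intensities, and the median was 5.44 for the injured array and 5.43 for the uninjured one. A gene counted as measured when at least 1 of its arrays reached 5.44, the overall median of the table. A log2 difference is always injured minus uninjured, so that 1 is 2-fold, and a gene counted as higher or lower when it was at least 2-fold apart. The median difference of all 19419 measured genes was 0.06. The only error the arrays offer is the disagreement between rows of the same gene, whose SD was 0.24 on the log2 difference over 529 rows of 250 genes. That SD holds neither the spread between mice nor the error of labelling and hybridisation. The level of 1 gene's row cannot be set against that of another gene, since the rows hold different probes, and so only differences between the arrays are compared between genes.

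The cytosolic synthetases were higher in the injured epithelium as a group, and the mitochondrial synthetases as a group were close to the rest of the genes. Of the 18 cytosolic genes 17 had the higher value in the injured array, with a median difference of 0.83 (1.77-fold) and a range from -0.02 for Qars to 1.12 for Iars. Of the 16 mitochondrial genes 11 were higher and 5 lower in the injured array, with a median of 0.11 and a range from -0.37 for Rars2 to 0.95 for Tars2. The medians of the compartments were thus 0.71 apart. Of all measured genes 58.4% were higher in the injured array by any amount.

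At least 2-fold higher were 5 of 18 cytosolic genes, Iars, Cars, Tars, Rars and Nars, where 4.15% of all measured genes passed in that direction. None of the 16 mitochondrial genes did, and 4.84% of the 9170 genes as bright as these passed. No member of either compartment was at least 2-fold lower, a direction in which 3.90% of all genes passed. The 5 calls lie just over the line, and after quantile normalization 3 of them, Cars, Iars and Tars, were still at least 2-fold higher. At 1.5-fold, 12 cytosolic and 3 mitochondrial genes were higher, against 11.1% of all genes, and 0 members were lower, against 8.74%. Bright genes differed a little more often, so the same counts were taken over the 6756 genes as bright as the cytosolic members, with means over both arrays from 7.66 to 10.2. Of these 6.22% were at least 2-fold and 14.9% at least 1.5-fold higher, and their median difference was 0.03. The differences of the cytosolic enzymes were thus moderate, and 12 of the 18 lay between 0.66 and 1.12.

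**Figure D1:**
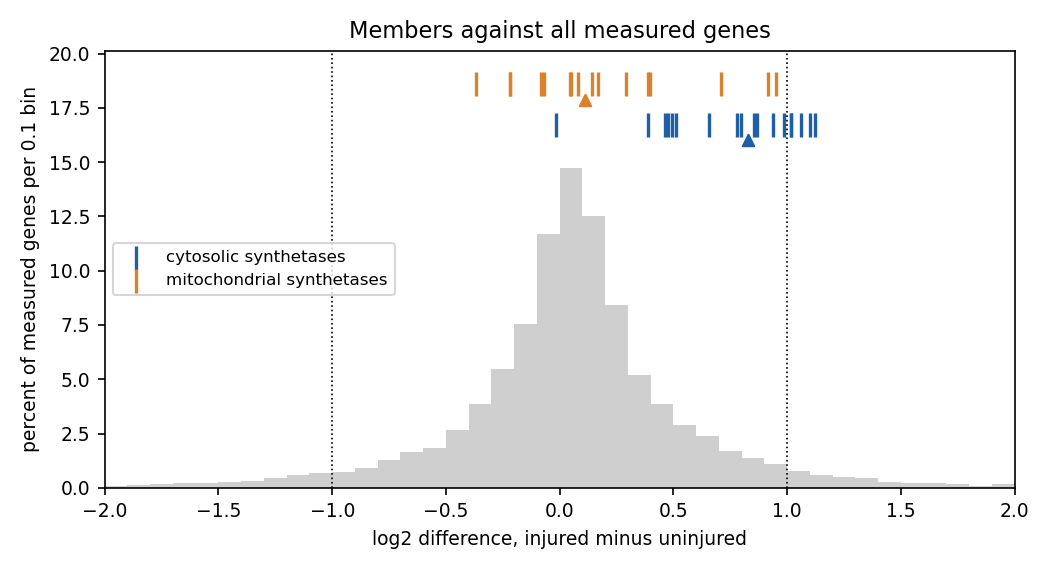
Grey bars give the percent of all 19419 measured genes in each 0.1 bin of the log2 difference, injured minus uninjured, over differences up to 2 in either direction (288 genes lie farther out), and dotted lines mark 2-fold. Ticks above the bars mark single cytosolic (blue) and mitochondrial (orange) synthetases at an arbitrary height, and triangles their medians of 0.83 and 0.11. Most blue ticks lie on the right flank of the bars and most orange ticks over their centre, with Tars2, Mars2 and Yars2 farther right.

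Iars, the isoleucine enzyme of the multi-synthetase complex, read 9.24 in the uninjured and 10.36 in the injured array, a difference of 1.12 (2.18-fold) that 3.19% of measured genes reached or passed. Cars, which charges cysteine, read 8.02 uninjured and 9.13 injured, 2.15-fold. Tars, the threonine enzyme, read 9.12 uninjured and 10.18 injured, 2.09-fold. These enzymes led the family. Rars, the arginine enzyme of the complex, went from 9.32 uninjured to 10.34 injured, and Nars, the asparagine enzyme, from 9.55 to 10.56, each by 1.02. Both lie so close to 2-fold that the calls depend on the processing: neither passed after quantile normalization, and Rars did not with 16 added to the unlogged intensities.

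A second set lay short of 2-fold, from 0.99 for Vars to 0.66 for Lars. Vars, the valine enzyme, read 7.98 in the uninjured and 8.97 in the injured array (0.99). Gars, which charges glycine in both compartments, read 9.74 uninjured and 10.68 injured (0.94). The histidine enzyme Hars differed by 0.87 (7.94 uninjured, 8.81 injured). At its edge the 2-fold line divides nearly equal values, since Vars and Nars were 0.03 apart. Eprs, a single protein that charges both glutamate and proline, read 9.46 uninjured and 10.31 injured (0.86, 1.81-fold). Mars, the methionine enzyme that also supplies the tRNA for initiation, differed by 0.80 (8.30 uninjured, 9.09 injured). Lars, the leucine enzyme that is also known as a leucine sensor of the mTORC1 pathway, differed by 0.66 (8.43 uninjured, 9.08 injured).

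The phenylalanine enzyme is built from alpha subunits encoded by Farsa and beta subunits encoded by Farsb, and the subunits had unequal differences. Farsb read 8.17 uninjured and 8.95 injured (0.78), and Farsa 7.63 uninjured and 8.10 injured (0.47). The gap between them, 0.31, involves the error of 2 rows, while the SD of 0.24 is that of a single row. It is therefore within the disagreement between rows. Sars, Wars and Yars had differences within 0.05 of that of Farsa. The serine enzyme Sars read 9.16 uninjured and 9.67 injured (0.51). Wars, the tryptophan enzyme, which is also known to be induced by interferon gamma, differed by 0.49 (7.69 uninjured, 8.18 injured). Yars, the tyrosine enzyme, differed by 0.46 (7.43 uninjured, 7.89 injured).

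Kars and Qars stood lowest among the cytosolic genes. Kars, the lysine gene that serves both compartments, read 9.59 uninjured and 9.98 injured (0.39). A row named for its pseudogene Kars-ps1 lay below the low-signal level in both arrays (4.12 uninjured, 3.63 injured). Qars, the glutamine enzyme, was the 1 cytosolic member without a higher value in the injured array, at 9.79 uninjured and 9.77 injured. Both are subunits of the multi-synthetase complex, so within that particle the subunits' RNAs ranged from Qars at -0.02 to Iars at 1.12. The row that Aars shares with Exosc6 read 7.88 uninjured and 8.64 injured, a difference of 0.76 that cannot be divided between those genes.

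**Figure D2:**
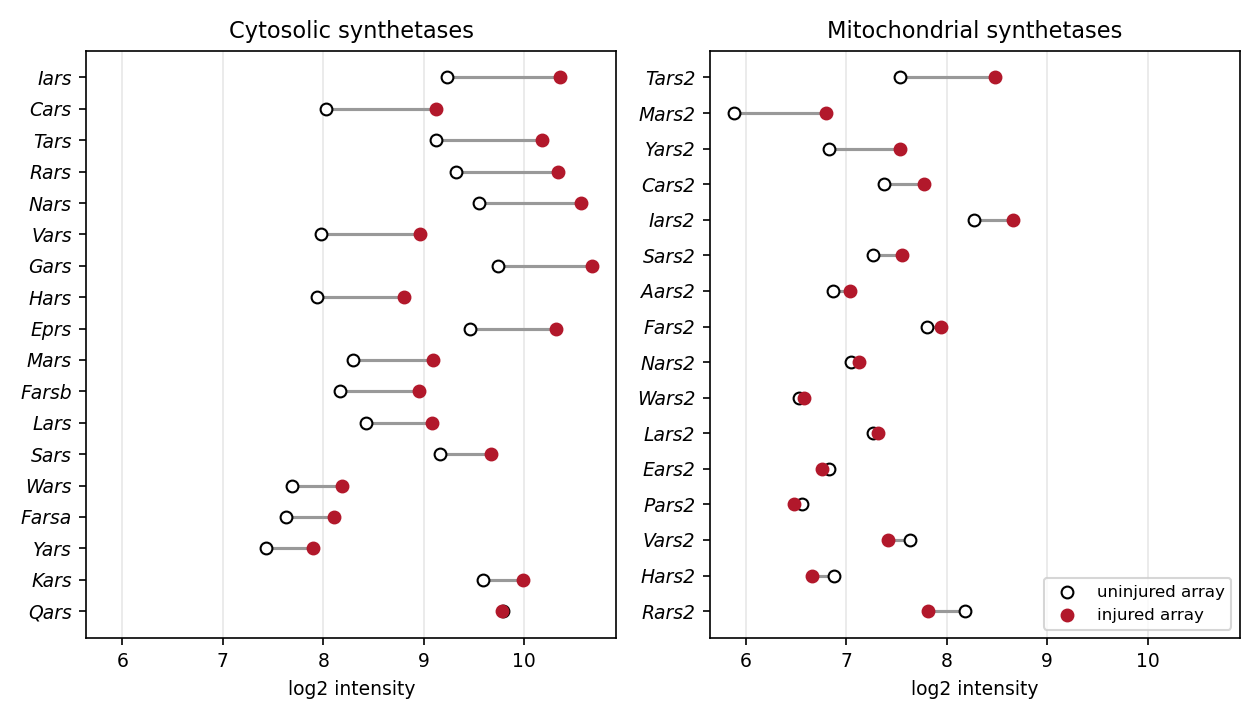
Log2 intensity of each measured synthetase in the uninjured (open) and injured (red) array, 1 value each, cytosolic genes on the left and mitochondrial genes on the right, sorted by difference. Each red point except that of Qars lies to the right of its open point in the cytosolic panel, while 5 of the 16 mitochondrial genes have the order turned.

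Most mitochondrial synthetases differed little. Of the 16 genes 13 were less than 1.5-fold apart, and the other 3 passed 1.5-fold upward. Across the array 11.1% passed 1.5-fold upward and 8.74% downward, so a gap below 1.5-fold was usual for any gene. Tars2, the mitochondrial threonine enzyme, read 7.53 uninjured and 8.48 injured (0.95, 1.93-fold). Mars2, the mitochondrial methionine enzyme, read 5.88 uninjured and 6.80 injured (0.92, 1.89-fold), with an uninjured value not far above the low-signal level of 5.44. When 16 was added to the unlogged intensities, Mars2 differed by 0.76. Yars2, the mitochondrial tyrosine enzyme, read 6.83 uninjured and 7.53 injured (0.71). These 3 lay among the cytosolic genes, and only Tars2 and Mars2 were above the cytosolic median. With Cars2 and Iars2, 5 mitochondrial genes reached the difference of Kars, the lowest cytosolic gene apart from Qars.

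Next came Cars2 (7.38 uninjured, 7.77 injured, 0.40), the cysteine enzyme of the mitochondrion, which is also known to make cysteine persulfides. The isoleucine enzyme Iars2 differed by 0.39 (8.27 uninjured, 8.66 injured) and the serine enzyme Sars2 by 0.29 (7.26 uninjured, 7.56 injured). All 3 were thus within the range that a large part of the array covers, since 17.7%, 17.9% and 23.2% of measured genes differed by as much or more in this direction. Aars2 for alanine (0.17), Fars2 for phenylalanine (0.14), Nars2 for asparagine (0.08), Wars2 for tryptophan (0.05) and Lars2 for leucine (0.04) differed by less than the SD between rows of one gene.

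The 5 mitochondrial genes with the lower value in the injured array were Rars2, Hars2, Vars2, Pars2 and Ears2. Rars2, for arginine, read 8.18 uninjured and 7.81 injured (-0.37), the lowest difference of the family. Hars2, for histidine, and Vars2, for valine, both differed by -0.22. The proline enzyme gene Pars2 and the glutamate enzyme gene Ears2 differed by -0.08 and -0.07, which is small against the disagreement between rows. None reached 1.5-fold.

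For 15 amino acids both a cytosolic and a mitochondrial gene were measured, with Eprs entering for glutamate and for proline and the mean of Farsa and Farsb standing for phenylalanine. In 13 of the 15 pairs the cytosolic gene had the larger difference, and the median gap was 0.71. In 5 pairs the cytosolic gene was higher and the mitochondrial gene lower in the injured array, those of arginine, valine, histidine, glutamate and proline. The gap was widest for arginine (Rars 1.02, Rars2 -0.37), then for valine (Vars 0.99, Vars2 -0.22) and histidine (Hars 0.87, Hars2 -0.22), and it passed 1 in these 3. Hars and Hars2 overlap in the RefSeq annotation and are close copies, and how far each row responds to the other's RNA was not tested. The order was turned for methionine (Mars 0.80, Mars2 0.92) and tyrosine (Yars 0.46, Yars2 0.71), by no more than about the SD between rows. Threonine was the pair in which both compartments had large differences (Tars 1.06, Tars2 0.95).

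**Figure D3:**
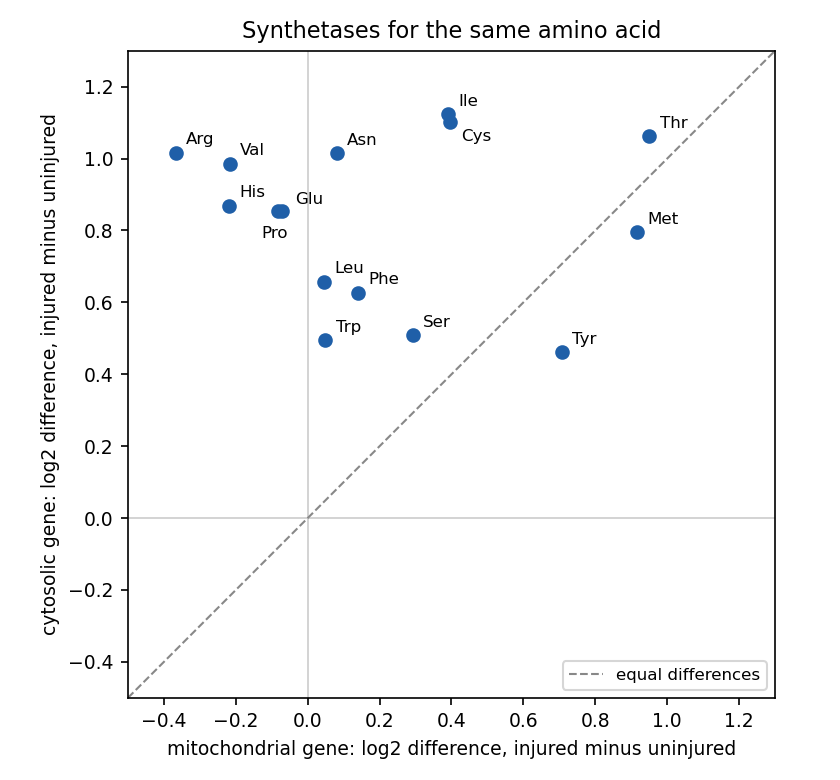
Log2 difference, injured minus uninjured, of the cytosolic gene (vertical) against the mitochondrial gene (horizontal) for 15 amino acids, 1 point each, with a dashed line where both would be equal. Met and Tyr are the 2 points below the line, and the 5 points left of 0 are the pairs in which the mitochondrial gene was lower.

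Medians were close for enzymes inside and outside the complex and for both catalytic folds. The 7 measured enzymes of the multi-synthetase complex had a median of 0.80 with 2 at least 2-fold higher, and the 11 enzymes outside it had a median of 0.87 with 3. Of all measured genes 4.15%, and of genes as bright as the cytosolic members 6.22%, were at least 2-fold higher. The 10 class I enzymes, which share a nucleotide-binding Rossmann fold, had a median of 0.83, and the 9 class II enzymes, built on an antiparallel sheet, a median of 0.86, with the fused Eprs in both. The scaffolds of the complex were more uneven. Eef1e1 read 8.996 uninjured and 10.23 injured (1.24) and Aimp2 8.02 uninjured and 9.04 injured (1.03), while Aimp1 read 8.31 and 8.61 (0.30). The 12 measured genes of a list of known ATF4 targets had a median of 0.90 with 4 at least 2-fold higher, all 12 being above 0, and the 6 cytosolic genes outside that list a median of 0.63 with 1. These ranges overlap, from 0.46 to 1.12 in the list and from -0.02 to 1.02 outside it.

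Promoter sequences show which of the genes carry the letters of the element that ATF4 and C/EBP proteins are known to bind. RefSeq promoters of GRCm38.p6, 250 bases before to 50 after the start, were found for 25 of the 34 measured members. The motif TGATGNAA, searched on both strands stood in 4 of 11 cytosolic promoters (Gars, Iars, Tars and Yars) and in 0 of 14 mitochondrial ones, against 4.51% of the promoters of all 27025 genes. The E-box CACGTG, the palindrome bound by Myc and related factors, stood in 3 of 11 cytosolic promoters (Farsb, Iars and Tars) and in 1 of 14 mitochondrial ones (Ears2), against 8.09% of all. Below are the matches with 11 bases on each side, 5′ to 3′ in the direction of the gene, with the 8 matching letters in capitals. They are shown because matches stood in cytosolic promoters alone among the measured members with a promoter.
Iars, bases 8 to 15 after the start, chr13:49682126-49682155, plus strand: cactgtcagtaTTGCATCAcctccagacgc
Tars, bases -15 to -8, chr15:11399655-11399684, minus strand: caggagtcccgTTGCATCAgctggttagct
Gars, bases -30 to -23, chr6:55037960-55037989, plus strand: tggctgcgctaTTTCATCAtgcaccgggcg
Yars, bases 4 to 11, chr4:129189895-129189924, plus strand: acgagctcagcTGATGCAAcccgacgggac

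The windows of Iars, Tars and Yars hold the same 8 letters, read on the opposite strand in Yars. Gars and Tars are the measured members whose match lies before the start, and the 250 bases before their starts follow, with the motif in capitals, to show where in the promoter it stands.
Gars, chr6:55037751-55038000, plus strand: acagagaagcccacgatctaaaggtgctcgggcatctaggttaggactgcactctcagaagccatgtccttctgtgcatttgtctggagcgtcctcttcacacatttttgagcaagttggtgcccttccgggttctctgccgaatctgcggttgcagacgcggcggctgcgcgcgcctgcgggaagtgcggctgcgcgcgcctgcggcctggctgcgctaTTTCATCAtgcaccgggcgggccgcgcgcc
Tars, chr15:11399659-11399908, minus strand: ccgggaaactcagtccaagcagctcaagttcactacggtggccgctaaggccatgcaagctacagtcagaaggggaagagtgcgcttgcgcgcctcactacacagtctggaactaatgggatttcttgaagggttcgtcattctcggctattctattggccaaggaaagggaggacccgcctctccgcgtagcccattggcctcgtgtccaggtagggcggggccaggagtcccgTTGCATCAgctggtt

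The 4 measured cytosolic genes with a match had differences of 1.12 (Iars), 1.06 (Tars), 0.94 (Gars) and 0.46 (Yars). The 7 measured cytosolic genes whose promoter in the table lacks these letters had a median of 0.51, from Qars at -0.02 to Eprs at 0.86. None of these 7 was at least 2-fold higher, and 2 of the 4 with a match were. Of all measured genes 4.15% passed, and 6.22% of those as bright as the cytosolic members, so 0 of 7 is near these shares. The groups overlap, since Yars lies below the median of 0.51. Promoters of Cars, Nars and Rars, which were at least 2-fold higher, were not used here. A match describes the letters of this window, and binding was not measured.

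Genes of the amino acid response, the pathway of ATF4, were higher in part. Beside known targets of ATF4 the list holds Atf4 itself and Eif2ak4, which acts before it. The list had 20 measured genes and a median of 0.56, with 7 genes past 2-fold upward and 1 downward, where 4.15% and 3.90% of all measured genes passed. Nupr1, a stress-induced chromatin protein, read 6.30 uninjured and 9.29 injured (2.99). Asns, which makes asparagine, read 7.22 uninjured and 9.32 injured (2.10), and Shmt2, the mitochondrial serine and glycine enzyme, 7.97 and 9.99 (2.03). The differences of these genes were thus larger than those of any synthetase. The RNA of Atf4 itself, whose protein is mainly set at translation, differed by 0.19 (9.19 uninjured, 9.38 injured). The stress genes Ddit3 (-0.09) and Chac1 (-0.88), also known as ATF4 targets, did not share the higher values. Of the 20 measured genes of the list 17 were above 0, where 58.4% of all measured genes were, and Ddit3, Chac1 and Eif2ak4 were the 3 below 0. At least 1.5-fold higher were 10 and at least 1.5-fold lower 2, against 11.1% and 8.74% of all measured genes. Ddit3 overlaps Mars in the annotation, and their differences were unlike (-0.09 and 0.80). Eif2ak4, the kinase that senses uncharged tRNA and leads to ATF4, was the 1 gene of the list at least 2-fold lower (8.24 uninjured, 7.22 injured, -1.02).

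The median of 15 amino acid transporters was 0.33, and 4 of them were higher by 2-fold or more and 0 lower, against 4.15% and 3.90% of all measured genes. Slc7a5, the importer of large neutral amino acids such as leucine, isoleucine and tryptophan, read 8.57 uninjured and 10.29 injured (1.72). Its partner subunit gene Slc3a2 differed by 0.82, and Slc38a9, an amino acid sensor of the lysosome, by -0.96 (7.64 uninjured, 6.67 injured). The glutamine and neutral amino acid transporter Slc1a5 differed by 1.33 (7.31 uninjured, 8.65 injured) and Slc7a6 by 1.23. Slc7a11, the cystine importer, differed by 1.36 from an uninjured value of 4.59 that lies below the low-signal level, so that the size and the call are uncertain.

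Other enzymes that make or check charged tRNA were near the background. The mitochondrial amidotransferase that turns glutamate into glutamine on tRNA, which stands in for a mitochondrial glutamine synthetase, had Gatc at 0.45 (9.72 uninjured, 10.18 injured), Gatb at 0.03 and Qrsl1 at -0.06. Tarsl2, a threonine synthetase closely related to Tars, differed by -0.06 (6.80 uninjured, 6.73 injured), against 1.06 for Tars. Of 3 proofreading genes none was 1.5-fold apart, and Dtd1, a deacylase that removes D-amino acids from tRNA, had the largest difference (0.20). Across the array 11.1% passed 1.5-fold upward and 8.74% downward, so 0 of 3 says little. Among 7 measured genes of a list of cytosolic and mitochondrial elongation factors none was 2-fold apart. For that list a count of 0 is near the array's shares, 4.15% upward and 3.90% downward. In that list the mitochondrial translocase Gfm1 differed by 0.89 and the mitochondrial tRNA carrier Tufm by 0.79. The mitochondrial genes Gfm2 (0.06) and Tsfm (0.13) were near the background. The cytosolic carrier Eef1a1 differed by 0.14, and its exchange factor subunits Eef1b2 and Eef1d by 0.24 and 0.45.

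**Figure D4:**
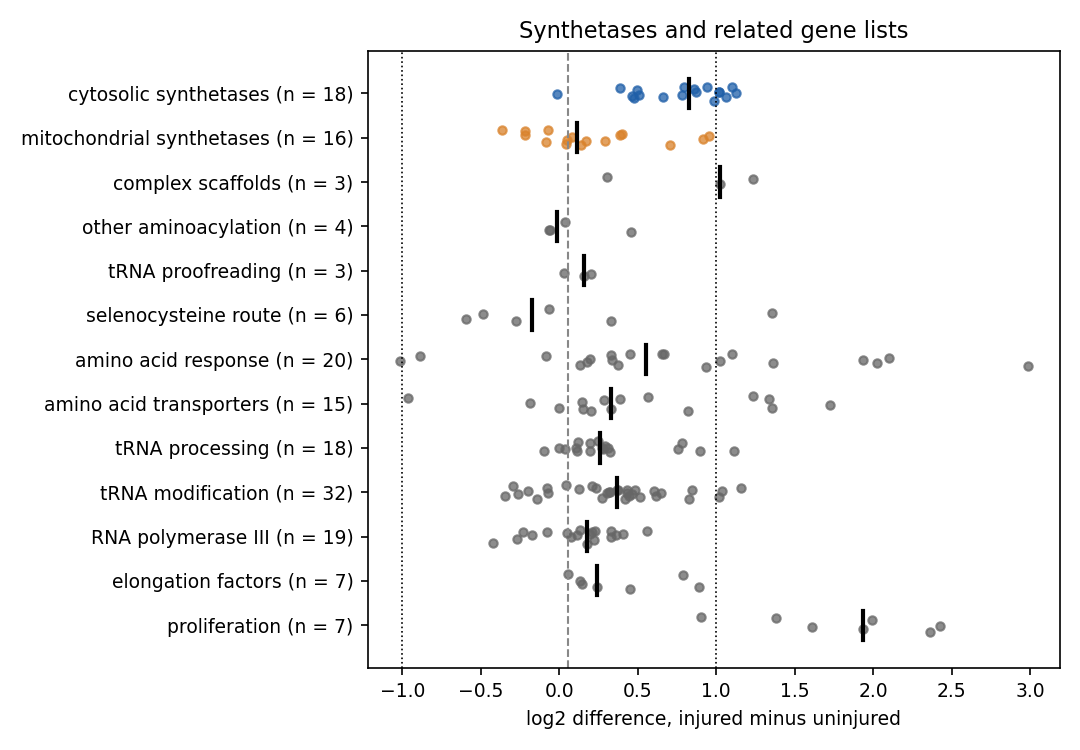
Log2 difference, injured minus uninjured, of each measured gene (points, with vertical jitter) in the synthetase groups and related lists, black bars marking medians, the dashed line the median of all measured genes (0.06) and dotted lines 2-fold. The cytosolic synthetases (median 0.83) lie to the right of the mitochondrial synthetases (0.11) and of all related lists except the complex scaffolds (1.03) and the proliferation genes (1.94).

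Genes of cell division and some epithelial markers also differed between the arrays. The median of 7 measured proliferation genes was 1.94, and 6 passed 2-fold upward. They were led by Cenpe (2.42) and Bub1 (2.36), which act at kinetochores, and by the topoisomerase Top2a (1.99). For this and the marker lists below, the background is that 4.15% of all measured genes passed 2-fold upward and 3.90% downward. Of 6 corneal epithelial markers 3 were at least 2-fold lower, among them the corneal keratin Krt12 (14.07 uninjured, 10.85 injured) and Aldh3a1 (-2.68), and the basal keratin Krt14 was higher (2.23). All 6 were bright in both arrays, between 9.31 and 14.1. Their summed linear intensity was 49733 uninjured and 29124 injured, and in this and the sums below the brightest rows weigh most. The conjunctival list had Krt19 at least 2-fold higher (1.11) and the goblet cell mucin Muc5ac at least 2-fold lower (-1.26), 1 of 4 in each direction. Krt4 (0.14) and Krt13 (-0.29) lay between them, and the summed linear intensity was 9609 uninjured and 10886 injured. Of 8 leukocyte markers 6 passed the filter and 0 of these were 2-fold apart, which is near the shares of all measured genes. The largest difference among these 6 was that of Lyz2 (0.87). S100a8, a calgranulin of neutrophils and of stressed epithelium, lay below the low-signal level in both arrays with the wider gap of 3.77 uninjured and 5.32 injured. For all 8 the summed linear intensity was 770 uninjured and 931 injured. The summed intensity of 5 keratocyte markers was 358 uninjured and 292 injured, with Dcn 6.09 uninjured and 4.77 injured, the latter below the low-signal level, and of 3 endothelial markers 101 and 111, Cdh5 differing by 0.07. No value in the table is 0. The leukocyte gene Ptprc, the keratocyte genes Kera and Lum and the endothelial genes Pecam1 and Kdr lay below the low-signal level in both arrays. The part of proliferation and of cell makeup in the differences of the synthetases was not tested, and in bulk RNA more cells of a type and more RNA per cell cannot be told apart.

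The differences of single synthetases carry further limits of the array. Of the 34 measured members 15 overlap another gene in the RefSeq annotation of GRCm38.p6, among them Rars2 with the replication origin gene Orc3 and Farsb with Sgpp2. Some of the overlaps are with microRNA or predicted genes, such as Mir7069 for Farsa and Gm40912 for Fars2. The share of all measured genes with such an overlap was not counted. Which strand and which exons the probes cover was not known here.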

How the data were processed

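RNA from 1 injured and 1 uninjured sample was measured on microarrays. The values the authors deposited are log2 intensities of 65952 rows. Agilent Feature Extraction 9.1 is named in the submitters' processing notes, although the rows are numbered like transcript clusters. Background correction, summary, normalization and build were not given in the sources used here. Medians of both columns were 0.0135 apart, and values were used as deposited, with no detection or saturation calls.

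The platform's annotation named the rows, and RefSeq of GRCm38.p6 updated older symbols (the methionine gene Mars is Mars1 there): 31085 rows had 1 gene, 1661 several and 33206 are unnamed here. Rows whose brighter value reached 5.44 were kept, and of several kept rows of a gene the one with the highest mean. Calls were by size, 2-fold. The selection was tested on simulated data (Python 3.11.15, pandas 2.3.3, statsmodels 0.14.6 for the loess, span 0.3).

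The members and lists were chosen with earlier results of these data known. All members were named, and from each list up to 3 genes at least 2-fold apart or else the gene with the largest difference. Aimp1, Atf4, Ddit3, Chac1, Eif2ak4, Slc3a2, Slc7a6, Slc38a9, S100a8, Gatb, Qrsl1, Tarsl2, Tufm, Gfm2, Tsfm, Eef1a1, Eef1b2, Eef1d, Krt4, Krt13, Ptprc, Kera, Lum, Pecam1 and Kdr were added after their values were seen. The alternatives were other normalizations, filters, choices of row, size thresholds, a constant of 16 added before log2, and leaving out Gars and Kars. The planned comparison of protein sequences was not run.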

Additional observations from a re-analysis of the deposited data

How the results depend on the processing

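Across the alternatives the cytosolic median stayed between 0.80 and 0.83, the mitochondrial median between 0.10 and 0.17, and the difference between them from 0.66 to 0.73. No member's difference changed sign under any of them. The count of cytosolic genes at least 2-fold higher was 5 and became 3 after quantile normalization and 4 with a constant of 16 added before log2, which took Rars below the line. With a threshold of 1.5-fold it was 12, and 3 for the mitochondrial genes, and with a threshold of 4-fold it was 0. The cytosolic gene had the larger difference in 13 of 15 pairs, in 14 with the constant added, and in 9 of 10 pairs with the filter at the 75th percentile, which leaves 11 mitochondrial genes. No paired analysis was possible because each group has 1 array. Leaving out a replicate was not possible either. The number of arrays limits every value.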

Other observations

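Genes that make and finish tRNA were higher by less than the cytosolic synthetases. The median of 32 measured tRNA modification genes was 0.37, and 3 passed 2-fold upward and 0 downward, where 4.15% and 3.90% of all measured genes passed: Qtrt1, a subunit of the enzyme that inserts queuine at the wobble position of tRNAs for asparagine, aspartate, histidine and tyrosine (1.16), the cytosine methyltransferase Nsun2 (1.04) and the pseudouridine synthase Pus7 (1.02). Of 18 tRNA processing and export genes 1, the RNase P subunit gene Rpp30 (1.11), passed 2-fold, a share near that of all genes, and the median was 0.26. None of 19 genes of RNA polymerase III and its factors, which transcribe tRNA genes, was at least 1.5-fold apart. Across the array 11.1% passed that line upward and 8.74% downward. The median of the 19 was 0.18, and Polr3d had the largest difference (0.56).

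The route that charges tRNA with selenocysteine had a median of -0.17 over 6 measured genes. By any amount 2 were higher and 4 lower in the injured array, where 58.4% of all measured genes were higher. At least 2-fold higher was 1 and at least 2-fold lower were 0, against 4.15% and 3.90% of all measured genes. Sephs2, which makes the selenium donor and is itself a selenoprotein, read 7.53 uninjured and 8.88 injured (1.35). Sepsecs (-0.59) and Pstk (-0.49), the enzymes that convert serine on the tRNA, and the elongation factor Eefsec (-0.28) had the lower value in the injured array, and all 3 were less than 2-fold apart. The remaining genes, Sephs1 (0.33) and Secisbp2 (-0.07), were also less than 2-fold apart. Sepsecs, Pstk, Eefsec, Sephs1 and Secisbp2 were named after their values were seen.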
